A study of Saccharomyces cerevisiae with 6 samples.

Results

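The raw count table held 299 rows for transfer RNA (tRNA) genes of the budding yeast Saccharomyces cerevisiae, out of 7126 gene rows, chosen by their names: a letter for the amino acid and the anticodon in brackets, as in tE(UUC). A further letter gives the chromosome, and a digit the copy where a chromosome carries several. Of these rows, 275 named nuclear genes and 24, whose names end in Q, named mitochondrial genes, which were kept apart. Poly(A) RNA was sequenced from yeast whose actin carries R256C, cysteine in place of arginine (called R256C here), and from wild-type yeast (WT), both labelled S288C, with 3 biological replicates each. Cultures received no treatment, were diluted to an optical density of 0.3 in rich medium (YPD) at 30 °C, and were harvested at 0.9, in early exponential growth. The sources used here do not say how many isolates of each genotype the cultures came from, so any other difference between the strains and the substitution cannot be told apart.

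Transfer RNAs carry amino acids to the ribosome and read codons through their anticodons. RNA polymerase III transcribes their genes from promoter elements inside the gene, recognised by the factor TFIIIC, which places TFIIIB upstream, and transcription ends in a run of T. The transcript is trimmed at both ends, spliced where it has an intron, extended by CCA, modified, and exported to the cytoplasm. A mature tRNA has no poly(A) tail, whereas the nuclear TRAMP complex adds short A tails to faulty transcripts and passes them to the exosome. The libraries were selected with oligo(dT) beads after extraction on silica columns, which hold RNAs as short as tRNA poorly. The counts therefore describe the part of tRNA gene RNA that entered such libraries, not the pool of mature tRNA, and as shares of the reads they cannot tell more RNA of a kind from less of the rest.

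Copies of a tRNA gene are often identical, which bears on every value below. The 275 nuclear genes of the reference (R64) hold 56 distinct mature sequences. Of these, 21 belong to a single gene and 1 is shared by 16 genes. Reads placed at several loci stay outside the gene counts, so such a copy is counted only where reads reach sequence that differs. Levels per length below divide by the whole gene, not by the part where such reads can be counted. Mature sequences of 6 members are shown because the results turn on them: the 5 rows with the highest mean level and the row with the largest rise. Each is built from the RefSeq R64 genome with its intron removed, reads 5′ to 3′ without the added CCA, and has the anticodon in capitals.
tE(UUC)G1: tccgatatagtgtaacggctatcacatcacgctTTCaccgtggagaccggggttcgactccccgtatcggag
tH(GUG)G2: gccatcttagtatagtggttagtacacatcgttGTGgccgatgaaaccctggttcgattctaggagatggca
tV(AAC)O: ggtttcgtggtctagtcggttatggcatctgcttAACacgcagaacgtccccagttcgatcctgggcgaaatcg
tV(AAC)M2: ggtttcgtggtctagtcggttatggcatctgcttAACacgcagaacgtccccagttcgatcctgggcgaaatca
tY(GUA)D: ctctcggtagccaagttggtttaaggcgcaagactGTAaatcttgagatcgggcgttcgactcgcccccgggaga
tK(CUU)J: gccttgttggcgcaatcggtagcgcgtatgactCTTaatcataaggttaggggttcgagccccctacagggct
The valine pair differs by the single substitution A74G, counted from 1 at the 5′ end, with the base of the sequence that 13 tV(AAC) genes share given first and that of tV(AAC)O last. The sequence of tE(UUC)G1 is shared by 13 of the 14 tE(UUC) genes, and tE(UUC)M differs from it by T67G.

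The libraries held 11935735, 11165090 and 8967232 reads in genes in R256C replicates 1, 2 and 3, and 12476645, 16905818 and 10750023 in WT replicates 1, 2 and 3. Nuclear tRNA rows took 8451, 12670 and 12350 of these reads in R256C and 6929, 3300 and 3631 in WT. A count of 0 in 1 library allows up to 3 reads, or 0.251 to 0.335 CPM (reads scaled to a library total of 1000000 gene reads) in R256C and 0.177 to 0.279 CPM in WT, for counting error only. WT replicate 2 stood apart from the other WT libraries over all genes, with a chi-square per degree of freedom of 152 and 78.6 against 7.03 to 14.5 for the other pairs within a strain, and it was also the WT library lowest in tRNA reads.

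Summed over the 275 nuclear rows, tRNA gene RNA was higher in R256C. The sums were 708, 1135 and 1377 CPM in R256C replicates 1, 2 and 3, against 555, 195 and 338 CPM in WT replicates 1, 2 and 3. Every R256C library lay above every WT library, and R256C replicate 1 and WT replicate 1 were the closest to each other. The means were 1073 ± 339 CPM in R256C and 363 ± 181 CPM in WT (SD, n = 3 each), a ratio of 2.96. The two-sided exact permutation test gave p = 0.1, the smallest that 3 against 3 libraries allow. As 1 feature in edgeR's quasi-likelihood fit of the whole table, the sum rose by a log2 fold change of 1.51 (SE 0.35, adjusted p = 0.00906). Without WT replicate 2 the log2 fold change was 1.24 (adjusted p = 0.000144), and without WT replicate 1 it was 1.91 (adjusted p = 0.000632).

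**Figure D1:**
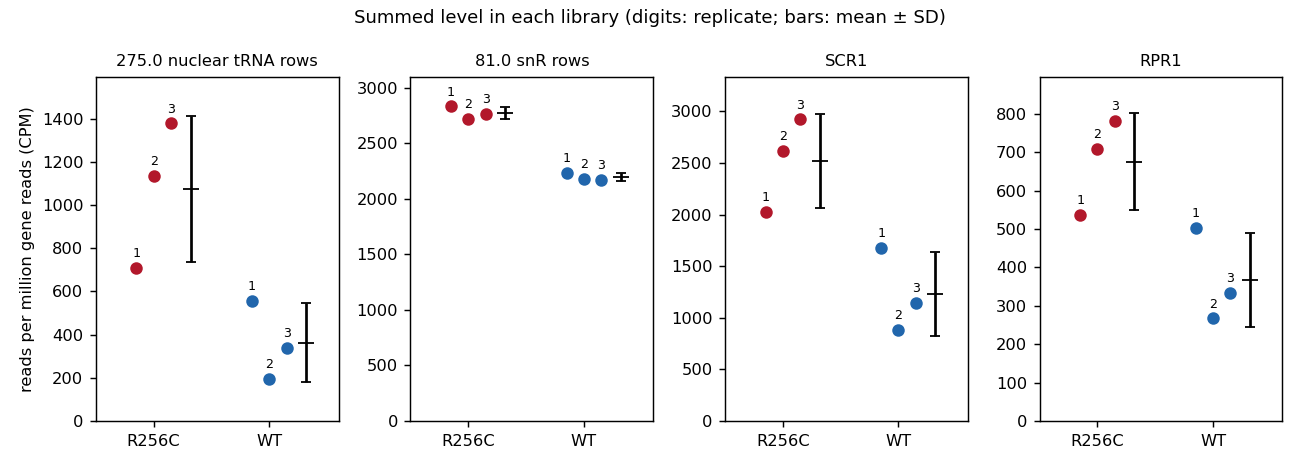
Level in each library, in CPM, of the 275 nuclear tRNA rows summed, of the 81 snR rows summed, of SCR1 and of RPR1, with R256C left of WT. Digits give the replicate and bars the mean ± SD of 3 libraries. The tRNA sum spans 708 to 1377 CPM in R256C and 195 to 555 CPM in WT, and in SCR1 and RPR1, as in the tRNA sum, WT replicate 1 is the WT library closest to R256C.

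Other RNAs that lack a long poly(A) tail were set beside this sum, since how much of such RNA enters a library depends on the poly(A) selection. The 81 rows named snR, small nuclear and nucleolar RNAs made mostly by RNA polymerase II, summed to 2834, 2724 and 2768 CPM in R256C and 2238, 2177 and 2171 CPM in WT. Their libraries did not overlap either, but the ratio was 1.26 (exact permutation p = 0.1), and of 76 tested snR rows 18 rose and 11 fell, with a median log2 fold change of 0.07, where 21.2% of all 6337 rows tested rose and 21.4% fell. Nuclear tRNA reads per snR read were 0.250, 0.417 and 0.498 in R256C and 0.248, 0.0897 and 0.156 in WT. On this scale R256C replicate 1 lay barely above WT replicate 1, the other R256C libraries lay above all WT libraries, and the ratio of means was 2.36. The summary row that collects reads with several alignments took 55.4, 56.0 and 57.2% of the table in R256C and 57.0, 53.6 and 53.1% in WT, which overlapped (exact permutation p = 0.3). The part of these differences in the tRNA result was not tested.

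Other structured RNAs, of which SCR1, RPR1, snR52, snR6, RDN5-1 and RNA170 are made by RNA polymerase III, were measured beside the tRNA rows. SCR1, RPR1, snR52 and snR6 ranked the 6 libraries in the same order as the tRNA sum, as did LSR1, a product of RNA polymerase II, while in RDN5-1 and RNA170 the strains overlapped. SCR1, the RNA of the signal recognition particle, was at 2023, 2615 and 2923 CPM in R256C and 1681, 880 and 1140 CPM in WT, and it rose by 0.95 on the log2 scale (SE 0.23, adjusted p = 0.0119). RPR1, the RNA of the tRNA-processing enzyme RNase P, was at 537, 709 and 781 CPM in R256C and 502, 267 and 332 CPM in WT (log2 fold change 0.80, SE 0.22, adjusted p = 0.0180). SCR1 lost its call without WT replicate 3 or R256C replicate 3 (adjusted p up to 0.0553), and RPR1 without WT replicate 3, R256C replicate 2 or R256C replicate 3 (up to 0.0716). Among rows chosen after their values were seen, snR52 rose by 1.16 (adjusted p = 0.0105) and snR6, the U6 spliceosomal RNA, by 0.64 (adjusted p = 0.0237). RDN5-1, a 5S ribosomal RNA row, did not pass at 0.78 (adjusted p = 0.112), nor did RNA170 at 1.02 (adjusted p = 0.0502). Of the structured RNAs made by RNA polymerase II, NME1 of RNase MRP rose by 0.46 (adjusted p = 0.00714), the telomerase RNA TLC1 fell by 0.37 (adjusted p = 0.0104; 0.0551 without R256C replicate 3), and LSR1, the U2 spliceosomal RNA, was at 0.37 and did not pass (adjusted p = 0.0553).

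At the level of single rows, 259 nuclear rows had reads in at least 1 library, 16 had none, and 156 passed the filter on low counts and were tested. Of these 156, 95 rose in R256C, 0 fell and 61 did not pass, where 21.2% of the 6337 rows tested rose and 21.4% fell. At an unadjusted p under 0.05, 115 tested tRNA rows were higher and 0 lower. DESeq2, which tested 259 tRNA rows, called 118 higher and 0 lower, with 91 of the 118 among the 95. It called 20.4% of all 6798 rows it tested higher and 21.8% lower. The median log2 fold change of the tested tRNA rows was 1.40, against -0.01 for all rows tested, and 94 of the called rows rose at least 2-fold. The log2 fold changes of the called rows ran from 0.95 to 3.70. The filter can be met by the libraries of 1 strain, so some low rows were tested only through R256C. Without the filter 108 of 259 tRNA rows rose, in a fit in which 19.6% of all rows rose. The count fell to 45 of 176 tested without WT replicate 3, 45 of 165 without R256C replicate 2 and 38 of 164 without R256C replicate 3. In these fits 13.7%, 14.9% and 14.4% of all rows rose. Without WT replicate 2 the count was 94 of 175, in a fit in which 29.4% of all rows rose. With library totals alone as the scale, which moved calls over all rows to 1639 higher and 886 lower against 1345 and 1359, 93 tRNA rows rose and 0 fell.

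**Figure D2:**
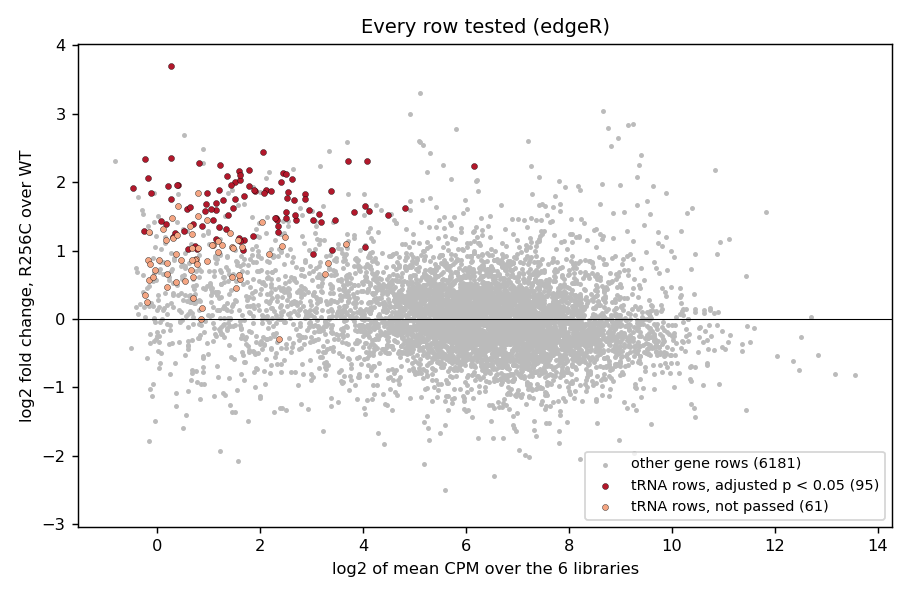
Log2 fold change, R256C over WT, against log2 of the mean CPM over the 6 libraries for each of the 6337 rows tested. Grey points are other gene rows, red points the 95 tRNA rows that passed and orange points the 61 that did not; all but 2 tRNA points lie above 0, at low CPM.

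The rows that could not be tested were low. Of the 259 rows with reads, 113 averaged under 1 CPM over the 6 libraries, 146 at least 1 CPM and 14 at least 10 CPM. The R256C mean was above the WT mean in 247 of them and below it in 12. All R256C libraries lay above all WT libraries in 136 of them and below in 1, where 32.1% of the 6540 other gene rows with reads had R256C entirely above WT and 18.3% entirely below. The exception was tM(CAU)P, a methionine tRNA row named after its values were seen, with 0.419, 0.0896 and 0.335 CPM in R256C and 0.561, 0.769 and 0.558 CPM in WT. It was too low to be tested. Of the tested rows, 2 had a log2 fold change below 0: tD(GUC)N at -0.29 (adjusted p = 0.402) and tR(ACG)J at -0.00 (adjusted p = 0.997).

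Glutamate tRNA carried the most reads. Row tE(UUC)G1, 1 of 3 tE(UUC) copies on chromosome VII, was at 66.1, 128 and 162 CPM in R256C and 42.7, 8.28 and 21.4 CPM in WT. The groups did not overlap, and the row rose by 2.24 on the log2 scale (SE 0.50, adjusted p = 0.00813). It held 70.9% of the reads of its family, pooled over the 6 libraries. The other chromosome VII copies have the mature sequence shown above for tE(UUC)G1 and were near 0: tE(UUC)G2 was at 0, 0.179 and 0.223 CPM in R256C and 0 in each WT library, and tE(UUC)G3 was at 0.335, 0.627 and 0.892 CPM in R256C and 0.160, 0 and 0.0930 CPM in WT. Per length of gene, tE(UUC)G1 was at 1648 CPM per kb in R256C and 335 CPM per kb in WT. Without this row the summed log2 fold change of the nuclear rows was 1.43 (adjusted p = 0.00942).

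Valine and histidine rows came next in level. Row tV(AAC)O, the copy with A74G, lies on chromosome XV at 663812 to 663885 on the minus strand (R64), and its gene sequence occurs once in the genome. It was at 28.2, 39.0 and 33.9 CPM in R256C and 16.5, 6.80 and 10.2 CPM in WT, without overlap (log2 fold change 1.52, SE 0.26, adjusted p = 0.00229). Row tV(AAC)M2, which has the common valine sequence, was at 15.5, 31.5 and 31.3 CPM in R256C and 15.3, 3.19 and 6.60 CPM in WT. The lowest R256C library lay just above the highest WT library, and the rise of 1.58 (SE 0.47, adjusted p = 0.0269) lost its call without WT replicate 3, R256C replicate 2 or R256C replicate 3 (adjusted p up to 0.101; leave-one-out log2 fold changes of 1.18 to 2.34). Row tH(GUG)G2 was at 33.2, 44.0 and 52.6 CPM in R256C and 16.8, 9.23 and 13.95 CPM in WT, with a wide gap between the groups (log2 fold change 1.62, SE 0.22, adjusted p = 0.000708). Row tH(GUG)E2, with the same mature sequence, was at 12.1, 17.4 and 23.1 CPM in R256C and 12.9, 2.66 and 8.19 CPM in WT. These overlapped, and its log2 fold change of 1.09 did not pass (adjusted p = 0.0803), though it passed with DESeq2 (0.0319) and in edgeR without WT replicate 1 (0.00809) or WT replicate 2 (0.031).

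**Figure D3:**
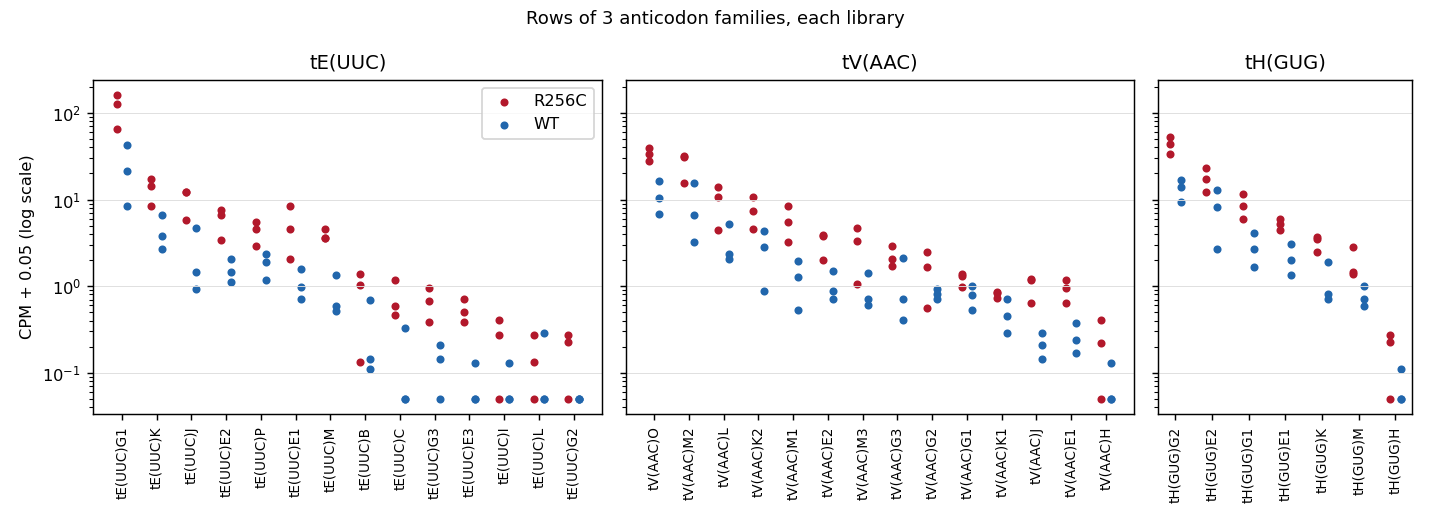
CPM plus 0.05 on a log axis for each library of the rows of the tE(UUC), tV(AAC) and tH(GUG) families, ordered by mean, with R256C in red left of WT in blue. A single row stands above its 13 neighbours in tE(UUC), at up to 162 CPM in R256C and 42.7 CPM in WT, while its lowest rows are at or near 0 in both strains.

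Of the other 5 rows named for their level, 3 come from genes with an intron. Row tY(GUA)D (SUP2), a tyrosine tRNA on chromosome IV at 946312 to 946400 on the plus strand, was at 15.3, 33.4 and 36.8 CPM in R256C and 9.70, 2.54 and 4.19 CPM in WT (log2 fold change 2.31, SE 0.46, adjusted p = 0.00460). Row tW(CCA)P, a tryptophan tRNA on chromosome XVI at 56169 to 56274 on the minus strand, was at 15.7, 26.9 and 33.6 CPM in R256C and 12.1, 4.38 and 6.42 CPM in WT (log2 fold change 1.66, adjusted p = 0.00759). Row tL(CAA)L, a leucine tRNA on chromosome XII at 628383 to 628497 on the plus strand, was at 15.6, 20.5 and 28.1 CPM in R256C and 10.3, 4.02 and 6.33 CPM in WT (log2 fold change 1.56, adjusted p = 0.00499). None of these 3 rows overlapped between the strains. Rows without an intron at a like level were tG(GCC)P1, a glycine tRNA at 13.4, 19.9 and 32.6 CPM in R256C and 7.21, 1.36 and 4.28 CPM in WT (log2 fold change 2.31, adjusted p = 0.00666), and tP(AGG)C (SUF2), a proline tRNA on chromosome III at 123577 to 123648 on the minus strand. Row tP(AGG)C was at 16.3, 23.6 and 28.4 CPM in R256C and 12.98, 7.93 and 9.95 CPM in WT (log2 fold change 1.06, adjusted p = 0.00684).

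The largest rise by fold was in a low row, but large rises were not confined to low rows. Rows tY(GUA)D and tG(GCC)P1, named above for their level, each rose by 2.31 on the log2 scale, and tE(UUC)G1 by 2.24. Row tK(CUU)J, a lysine tRNA on chromosome X at 414966 to 415038 on the plus strand, was at 1.34, 2.42 and 3.01 CPM in R256C and 0.240, 0.118 and 0.0930 CPM in WT (log2 fold change 3.70, SE 0.55, adjusted p = 0.00118). Each WT library held at most 3 reads in this row, so the size of the fold depends on few reads. Row tK(CUU)I, which has the same mature sequence, was at 2.01, 1.25 and 2.79 CPM in R256C and 0.721, 0.0592 and 0.372 CPM in WT (log2 fold change 2.35, adjusted p = 0.0167), and lost its call without WT replicate 3, R256C replicate 1 or R256C replicate 3 (adjusted p up to 0.0626). The threonine row tT(AGU)I1 was at 4.19, 7.08 and 10.04 CPM in R256C and 1.92, 0.414 and 1.49 CPM in WT (log2 fold change 2.43, adjusted p = 0.00482). The alanine row tA(AGC)M2 was at 0.922, 1.61 and 1.78 CPM in R256C and 0.321, 0.118 and 0.372 CPM in WT (log2 fold change 2.34, adjusted p = 0.00838). Rows tK(CUU)J, tK(CUU)I and tA(AGC)M2 passed the filter on low counts only through their R256C libraries. Had they been as low in R256C as in WT, they would not have been tested.

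Summing rows by anticodon gave 42 families, among them 1 of undetermined anticodon, tX(XXX). Of 37 families tested, 32 rose, 0 fell and 5 did not pass, where 21.2% of the features in that fit rose and 21.0% fell. In 33 of the 42 families every R256C library lay above every WT library. Of the 6540 gene rows with reads outside the tRNA rows, 32.1% had R256C entirely above WT and 18.3% entirely below. The families that did not pass were tI(UAU), tS(CGA), tL(GAG), tT(UGU) and tG(CCC), all with 1 to 4 rows and with log2 fold changes from 0.38 in tT(UGU) to 1.20 in tI(UAU). The calls fell to 18 without WT replicate 3, 18 without R256C replicate 2 and 17 without R256C replicate 3, and were 30 without WT replicate 2. In the fits of single rows on the same libraries, 13.7%, 14.9%, 14.4% and 29.4% of all rows rose, in that order.

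The tE(UUC) family of 14 rows summed to 93.2, 178 and 221 CPM in R256C and 62.4, 15.3 and 31.6 CPM in WT, and rose by 2.12 (SE 0.46, adjusted p = 0.00664). It took 15.3% of the nuclear tRNA CPM in R256C and 10.04% in WT. The tV(AAC) family averaged 96.4 ± 28.4 CPM in R256C and 31.8 ± 17.5 CPM in WT (log2 fold change 1.54, adjusted p = 0.00888). The tH(GUG) family averaged 79.7 ± 20.1 CPM in R256C and 27.9 ± 11.8 CPM in WT (log2 fold change 1.45, adjusted p = 0.00409). The leucine family tL(CAA), whose 10 genes all have introns, averaged 74.4 ± 23.8 CPM in R256C and 23.7 ± 12.5 CPM in WT (log2 fold change 1.59, adjusted p = 0.00762). These 4 families did not overlap between the strains.

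In the aspartate family the libraries of the strains overlapped. The tD(GUC) family of 16 rows was at 36.2, 57.2 and 73.7 CPM in R256C and 40.2, 15.4 and 25.7 CPM in WT, so WT replicate 1 lay above R256C replicate 1. Its rise of 0.97 (SE 0.33, adjusted p = 0.0418) lost its call without WT replicate 3, R256C replicate 2 or R256C replicate 3 (adjusted p up to 0.148). Tyrosine had a larger fold from a lower level: the tY(GUA) family was at 35.9, 68.8 and 80.4 CPM in R256C and 23.6, 6.92 and 11.5 CPM in WT (log2 fold change 2.08, SE 0.42, adjusted p = 0.00461). The other families with the largest rises were tT(CGU), a single row at 1.85 ± 0.520 CPM in R256C and 0.479 ± 0.359 CPM in WT (log2 fold change 1.96, adjusted p = 0.0199), and the 5 rows of tA(UGC), at 17.3 ± 6.93 CPM in R256C and 4.66 ± 2.69 CPM in WT (log2 fold change 1.83, adjusted p = 0.00866). The call of tT(CGU) was lost without R256C replicate 2 or R256C replicate 3 (adjusted p up to 0.0723), and tT(CGU) passed the filter on low counts only through its R256C libraries.

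**Figure D4:**
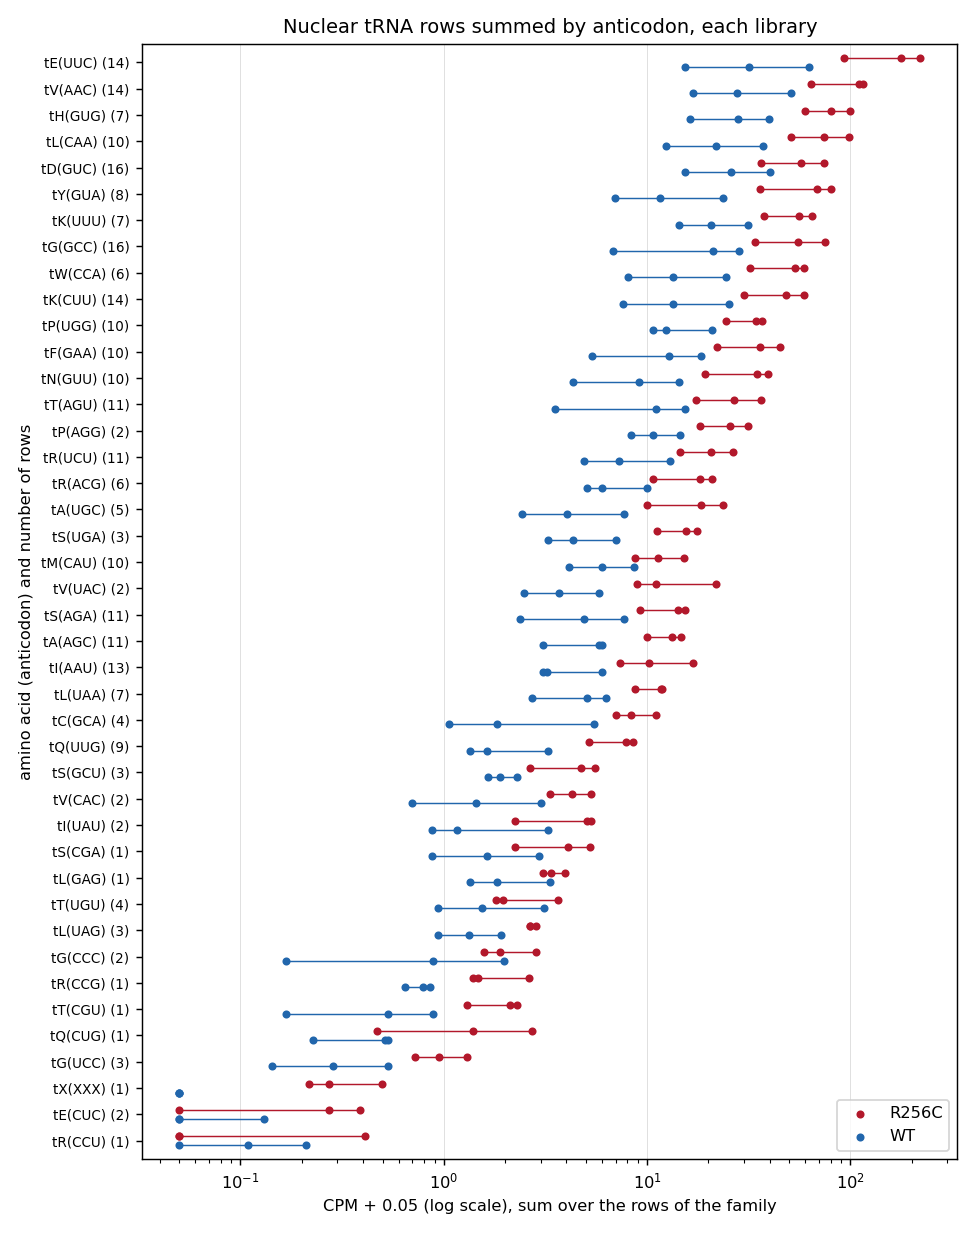
Summed CPM plus 0.05, on a log axis, of the 42 anticodon families in each library, with R256C in red above WT in blue and the number of rows in brackets after each name. Lines join the lowest and the highest library of a strain; the order of the families is alike in both strains, and R256C lies to the right in nearly all of them.

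The order of the families by level was close to the same in both strains. Spearman's rho between the R256C and WT means was 0.98 across the 42 families and 0.94 across the 259 rows with reads, as a description, since the families share libraries and depth and the rows also share sequences. Of all families, tP(AGG), with 2 rows, had the highest level per length, at 174 CPM per kb in R256C and 77.3 CPM per kb in WT. Row tP(AGG)C held 91.6% of the reads of that family, pooled over the 6 libraries. Levels per length in tE(UUC) were 163 CPM per kb in R256C and 36.1 CPM per kb in WT, and in the 13-row isoleucine family tI(AAU) 11.9 CPM per kb in R256C and 4.20 CPM per kb in WT.

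Summing by amino acid, all 20 groups of known amino acid rose, where 21.2% of the features in that fit rose and 21.1% fell. Their log2 fold changes ran from 0.85 in methionine to 2.12 in glutamate. Glutamate averaged 164 ± 64.8 CPM in R256C and 36.4 ± 24.0 CPM in WT, valine 115 ± 34.6 CPM in R256C and 37.4 ± 20.4 CPM in WT, and lysine 98.3 ± 28.5 CPM in R256C and 37.5 ± 17.7 CPM in WT. Leucine averaged 91.2 ± 25.9 CPM in R256C and 31.8 ± 15.4 CPM in WT, and histidine, a single family, has its values above. The libraries of the strains overlapped in aspartate alone among these 20 groups, and in the rest R256C lay entirely above WT. Of the 6540 gene rows with reads outside the tRNA rows, 32.1% lay entirely above and 18.3% entirely below. Of the 20 calls, 12 were made without WT replicate 3, and also 12 without R256C replicate 2 or R256C replicate 3, while 20 were made without WT replicate 2. In the fits of single rows on the same libraries, 13.7%, 14.9%, 14.4% and 29.4% of all rows rose, in that order.

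The reference gave further features of the genes. Rows were matched to RefSeq genes by amino acid, anticodon and chromosome, which gave 152 nuclear rows 1 gene each and left 123 matched to a group of copies without individual coordinates. The 60 rows of families with introns, the introns being 14 to 60 bp long, summed to 318 ± 96.3 CPM in R256C and 108 ± 51.9 CPM in WT. The 215 rows without introns summed to 756 ± 243 CPM in R256C and 254 ± 129 CPM in WT. The ratios of R256C over WT were 2.93 with introns and 2.97 without. The median level per length was 36.0 CPM per kb in R256C and 11.7 CPM per kb in WT with introns, against 19.4 CPM per kb in R256C and 7.93 CPM per kb in WT without. The share of tested rows that rose was 30 of 44 with an intron and 65 of 112 without; this difference was not tested.

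A run of T, where RNA polymerase III stops, follows most tRNA genes. A run of 6 or more T (TTTTTT) began within 10 bases after 200 of the 275 nuclear genes (72.7%), while 1.33% of genome windows of the same length held one. The 30 bases after 2 of the named genes show both kinds, with runs of 4 or more T in capitals.
tY(GUA)D, after the gene: TTTTTTTatgtcaagcacctacTTTTagcc
tV(AAC)O, after the gene: TTTTTaagaataTTTTatcttaaacTTTTT
The first has a run of 7 T at once, whereas tV(AAC)O is followed at once by TTTTT but by no run of 6 within 100 bases. Of the 152 rows with 1 gene, 111 with such a run within 10 bases had a median level of 20.7 CPM per kb in R256C and 8.50 CPM per kb in WT, 27 with the run at 11 to 100 bases had 21.5 CPM per kb in R256C and 7.55 CPM per kb in WT, and 14 with none within 100 bases had 40.1 CPM per kb in R256C and 16.9 CPM per kb in WT. The median log2 fold changes of their tested rows were 1.27, 1.50 and 1.39. The 14 genes with no run of 6 do not lack a run of T: after each of them TTTTT begins at base 1 to 13. The search was on the strand of the gene and found letters only.

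The nearest genes were set beside the tRNA rows, since counting may place reads of a neighbour that extend into a short row there. They were taken on either strand and on either side of the tRNA gene. Around the 53 rows with 1 gene that rose, the nearest gene other than a tRNA gene rose in 13 cases, fell in 16, did not pass in 21 and was not tested in 3, with a median log2 fold change of 0.02, where 21.2% of all rows tested rose and 21.4% fell. Around the 38 such rows that were tested and did not pass, it rose in 4 cases, fell in 8 and did not pass in 26, with a median of -0.05. Upstream on the same strand, the nearest gene of the 53 rows rose in 12 cases and fell in 10 (median 0.08). It did not pass in 30 and was not tested in 1. Within 250 bp such a gene lay by 2 of the 53 rows, and these 2 fell. For the 38 rows it rose in 4 cases and fell in 6 (median 0.05). Among the neighbours named next, only ERF2 lay upstream on the strand of its tRNA row. The neighbour of tV(AAC)O, HEM15, at 230 bp, was at 0.17 and did not pass (adjusted p = 0.345). ERF2, 186 bp from tL(CAA)L, fell by 0.34 (adjusted p = 0.0456), and SSM4, 219 bp from tK(CUU)I, fell by 0.33 (adjusted p = 0.0191). RPC17, 196 bp from tK(CUU)J, was at -0.23 (adjusted p = 0.379), and AMD2, 407 bp from tY(GUA)D, was at 0.10 (adjusted p = 0.518); neither passed. YCR006C, 574 bp from tP(AGG)C, rose by 0.90 (adjusted p = 0.00220). The transposon row YPL257W-B, 474 bp from tW(CCA)P, was not tested. The 107 nuclear rows with no other gene within 250 bp summed to 384 ± 125 CPM in R256C and 133 ± 64.8 CPM in WT (log2 fold change 1.47, adjusted p = 0.00857). The 28 rows whose gene sequence occurs at 1 place in the genome summed to 132 ± 27.8 CPM in R256C and 54.4 ± 22.7 CPM in WT (log2 fold change 1.21, SE 0.26, adjusted p = 0.00613).

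All 24 mitochondrial tRNA rows were at 0 in every library, so no fold is given. The mRNA and ribosomal RNA rows of the mitochondrial genome were low as well, with sums over 11 rows of 10.6, 10.3 and 9.93 CPM in R256C and 9.30, 6.15 and 7.72 CPM in WT. Of these, 2 rows could be tested and 0 passed. Yeast mitochondrial mRNAs are known to have no poly(A) tail, and the libraries were selected for one.

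The protein-coding genes of tRNA biology moved in both directions, against the same background of 21.2% and 21.4%. Among 10 factors that recruit RNA polymerase III, 2 rose, 2 fell and 6 did not pass (median log2 fold change 0.08). BRF1, the TFIIIB subunit that binds the polymerase, averaged 107 ± 3.06 CPM in R256C and 45.7 ± 5.61 CPM in WT (log2 fold change 1.12, SE 0.13, adjusted p = 0.000408). The TFIIIC genes TFC7 at 0.30, TFC4 at -0.40 and TFC3 at -0.53 passed with all libraries but lost their calls without WT replicate 3 or R256C replicate 1, TFC7 and TFC3 also without R256C replicate 2, TFC3 also without WT replicate 1 or R256C replicate 3, and TFC4 and TFC3 also with library totals alone. Their adjusted p then reached 0.0801 for TFC7, 0.0920 for TFC4 and 0.114 for TFC3. Of 10 polymerase III subunits 1 rose and 2 fell: RPO31, the largest subunit, averaged 134 ± 5.95 CPM in R256C and 211 ± 42.7 CPM in WT (log2 fold change -0.73, adjusted p = 0.00177), RPC25 fell by 0.64 (adjusted p = 0.00185), and RPC53 rose by 0.57 (adjusted p = 0.0313), a call lost without any single library except WT replicate 2 (up to 0.114).

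**Figure D5:**
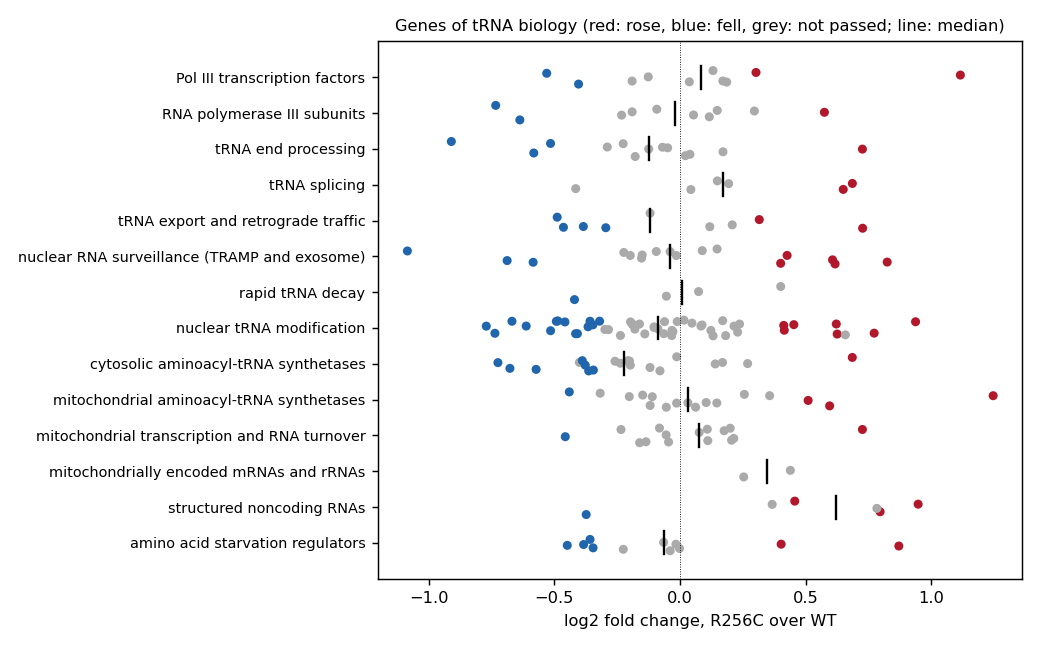
Log2 fold change, R256C over WT, of the tested genes of 14 lists of tRNA biology, 1 point per gene with vertical jitter for legibility. Red points rose, blue points fell, grey points did not pass, and black lines are medians; apart from the structured RNAs and the mitochondrially encoded rows, the medians lie between -0.22 and 0.17.

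In the later steps, end processing had 1 gene higher and 3 lower of 13. POP1 and POP3, protein subunits of RNase P, fell by 0.91 (adjusted p = 0.000412) and 0.52 (adjusted p = 0.00639). The calls of RPM2, of mitochondrial RNase P, at 0.73, and of POP4 at -0.58 were lost without R256C replicate 2, that of POP4 also without R256C replicate 3 or with library totals alone (up to 0.0640 and 0.0895). In splicing, 2 of 6 genes rose and 0 fell: TPT1, the 2′-phosphotransferase that finishes the spliced tRNA, averaged 50.6 ± 5.03 CPM in R256C and 29.3 ± 1.80 CPM in WT (log2 fold change 0.69, adjusted p = 0.00217). SEN15, of the splicing endonuclease, was at 0.65 (adjusted p = 0.0113), a call lost without WT replicate 3 or R256C replicate 2 (up to 0.0540). In export, 2 of 9 rose and 4 fell, with MTR2 up by 0.73 (adjusted p = 0.000434) and CEX1, which takes tRNA from nuclear pores, down by 0.46 (adjusted p = 0.00195). The export receptor LOS1 at -0.38 and SSA2 at -0.49 lost their calls without WT replicate 3 (up to 0.0656 and 0.122), SSA2 also without WT replicate 1 or any R256C replicate, and LOS1 also with library totals alone.

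In nuclear RNA surveillance, 5 of 17 genes rose and 3 fell. TRF5, a poly(A) polymerase of TRAMP, averaged 125 ± 13.01 CPM in R256C and 249 ± 41.8 CPM in WT (log2 fold change -1.08, SE 0.12, adjusted p = 0.000298). AIR2, an RNA-binding subunit of TRAMP, averaged 75.1 ± 0.850 CPM in R256C and 46.1 ± 4.66 CPM in WT (log2 fold change 0.61, adjusted p = 0.00169). Of the exosome, RRP4 fell by 0.69 (adjusted p = 0.00166) and RRP46 rose by 0.82 (adjusted p = 0.00233). In rapid tRNA decay, 1 of 4 fell, the exonuclease XRN1 by 0.42 (adjusted p = 0.00980). Of 51 tRNA modification genes, 7 rose and 14 fell (median -0.09). TRM12, of wybutosine synthesis, rose by 0.94 (adjusted p = 0.000186) and KTI12, of the Elongator pathway, by 0.77 (adjusted p = 0.00133), while the dihydrouridine synthases DUS3 and DUS4 fell by 0.77 (adjusted p = 0.000789) and 0.51 (adjusted p = 0.00132).

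Of 20 genes for enzymes that charge tRNA in the cytosol, 1 rose and 7 fell (median log2 fold change -0.22). CDC60, for leucine, averaged 457 ± 32.1 CPM in R256C and 683 ± 27.3 CPM in WT (log2 fold change -0.68, adjusted p = 0.00214). FRS2, for phenylalanine, fell by 0.72 (adjusted p = 0.00320) and GLN4, for glutamine, by 0.57 (adjusted p = 0.00713). YDR341C, for arginine, was at 0.69 (adjusted p = 0.0168), a call lost without WT replicate 3, R256C replicate 2 or R256C replicate 3 (up to 0.0782). Of 17 mitochondrial synthetases 3 rose and 1 fell, with MSR1, for arginine, at 255.9 ± 14.7 CPM in R256C and 101.5 ± 17.3 CPM in WT (log2 fold change 1.25, SE 0.11, adjusted p = 9.15e-05), MSY1 up by 0.60 (adjusted p = 0.000975), NAM2 up by 0.51 (adjusted p = 0.00327) and MSM1 at -0.44 (adjusted p = 0.00920; 0.0559 with library totals alone). Of 15 genes of mitochondrial transcription and RNA turnover, 1 rose and 1 fell: RPM2, given above, and the methyltransferase MRM2 at -0.46 (adjusted p = 0.0108; up to 0.0565 without R256C replicate 3 or with library totals alone).

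Among 11 regulators of the response to amino acid starvation, which is triggered by uncharged tRNA, 2 rose and 4 fell. GCN4, its transcription activator, averaged 802 ± 49.1 CPM in R256C and 407 ± 44.6 CPM in WT (log2 fold change 0.87, SE 0.15, adjusted p = 0.00212). The translation initiation factor genes GCD11 at 0.40, GCD2 at -0.45 and GCD6 at -0.38 passed with all libraries. GCD11 and GCD2 lost their calls without WT replicate 3 or R256C replicate 3 (adjusted p up to 0.0856 and 0.0758), GCD11 also without R256C replicate 1 GCD2 also without R256C replicate 2 or with library totals alone, and GCD6 with library totals alone (0.0513). GCN4 is regulated mainly in its translation, which these counts do not measure.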

How the data were processed

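RNA from 3 R256C and 3 WT cultures was made into stranded mRNA libraries by oligo(dT) selection from 1 µg of total RNA, per the labels' protocols. The authors deposited raw read counts per gene; TopHat, HTSeq, DESeq and the build R64 are named in the submitters' processing notes, with no versions and no strand or multi-read settings. The 5 summary rows of the counter stayed out of library sizes and tests.

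CPM divide a count by the library's total over gene rows. Tests used R 4.3.3 and edgeR 4.0.16 (filterByExpr, TMM, quasi-likelihood F test, Benjamini-Hochberg over all features, call at an adjusted p under 0.05), on single rows and with tRNA rows replaced by sums per anticodon, amino acid or genome. SE is the size of the log2 fold change over the square root of F. Depth was 8967232 to 16905818 gene reads. Alternatives were DESeq2 1.42.0, limma-voom (limma 3.58.1), other scalings and filters, subsets of members, leaving out each library, and a replicate block. All same-strain libraries differed beyond sampling noise, and each counted as 1 replicate. The p-values set a difference against the spread between the libraries of a strain, for these cultures only. The script was tested on simulated data.

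Members, gene lists and tests were chosen with earlier results of these data known. Named rows were the 10 with most CPM and the 6 with the largest rise; the 6 families with most CPM and 4 with the largest rise; the 5 amino acid groups with most CPM; and up to 4 called members per list with the smallest p. Every column belonged to a library of the series. Of 299 names, 298 matched a reference gene.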

Additional observations from a re-analysis of the deposited data

How the results depend on the processing

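The summed nuclear tRNA rows passed and kept their direction under all 16 alternatives, with log2 fold changes from 1.21 (rows with a sequence at 1 place) to 1.91 (without WT replicate 1), and no nuclear row, family or amino acid group fell in any of theirs. Rows that rose numbered 30 of 34 tested with a filter at 5 CPM in 3 libraries, fewer rows being tested (27 families), and 38 to 125 when 1 library was left out, against 95. Families that rose numbered 17 to 33 and amino acid groups 12 to 20 on leaving out 1 library, against 32 and 20; the sum ran from 1.24 to 1.91. The lowest counts came without WT replicate 3, R256C replicate 2 or R256C replicate 3, where 13.7%, 14.9% and 14.4% of all single rows rose. The cause was not tested. Other scalings, tests and no filter gave 93 to 118 rows, 31 to 34 families and 20 to 21 groups. The 24 mitochondrial rows had no reads and gave no value for their sum.

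Replicate numbers do not pair the samples: same-numbered libraries had correlations of deviations of -0.135, -0.070 and -0.053 for numbers 1, 2 and 3, and no R256C library correlated best with its own number. A replicate block left 65 rows, 27 families, 18 amino acid groups and a summed log2 fold change of 1.57 (adjusted p = 0.0169). With it the tD(GUC) family (adjusted p = 0.0599) and SSA2 (adjusted p = 0.0543) did not pass. Of 346 alternative values for named rows, families and groups, 331 kept their side of the threshold, 12 lost the call and 3 gained it. Reads in many rows were few: 113 of the 259 rows with reads averaged under 1 CPM, so their differences were often not detectable at this depth.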
